A study of Mus musculus with 8 samples.

Results

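The retinoid genes, aldehyde dehydrogenases and alcohol dehydrogenases of mouse tongue epithelium were taken by gene symbol from the authors' deposited table, which compares KrTB+DOX with KrTB. The rule took every symbol of the Aldh, Adh, Rdh and Dhrs families, the Cyp26 enzymes, the Rar and Rxr receptors, the Crabp and Rbp binding proteins, and Lrat, Stra6, Bco1 and Bco2. It found 53 of 15540 genes, of which 29 act on retinoids and 24 are other dehydrogenases. GENCODE M21 annotates 71 protein-coding genes that fit the rule, and 18 of these lacked a value per the authors' deposited table, among them Cyp26a1, Cyp26c1, Adh4, Adh6b, Aldh3b3, Aldh8a1, Bco1, Bco2 and Rbp3.

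KrTB+DOX comprised 4 libraries of tongue epithelium from C57BL/6 mice carrying the K14-rtTA and TRE-FLBmi-1 transgenes, on water with doxycycline at 2 mg/mL. KrTB comprised 4 libraries from mice of the same strain with the same transgenes, on water alone. The keratin 14 promoter, active in basal keratinocytes, makes a transactivator that turns on the Bmi-1 construct when doxycycline is bound, so a difference between these groups covers the drug and the construct together. The sources used here give neither ages nor whether a library came from a single animal. Poly(A) RNA was sequenced as stranded paired reads of 51 bases. Each gene has a log2 fold change, a mean over both groups in log2 CPM (library-scaled read counts) and limma's moderated test, adjusted over all genes, and genes with an adjusted p under 0.05 were called. No value per library was analysed here, so depth is unknown and overlap between the groups could not be examined. Group levels below are implied ones, the mean plus or minus the fold change shared equally between the groups, which holds if all libraries weighed the same. The sign was read from Bmi1, 42.8-fold higher with doxycycline per the authors' deposited table (5.42 on the log2 scale, SE 0.10, adjusted p = 4.5e-09). Its implied level was 1782 CPM in KrTB+DOX and 41.6 CPM in KrTB.

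Vitamin A enters cells as retinol, with the help of the membrane receptor Stra6, and is held by cellular binding proteins or stored as esters made by Lrat. Retinol and retinaldehyde are turned into each other by alcohol and short-chain dehydrogenases, retinaldehyde is oxidised irreversibly to retinoic acid by Aldh1a enzymes, and Cyp26 enzymes break retinoic acid down. Retinoic acid acts through Rar and Rxr nuclear receptors, and in the lining of the mouth vitamin A is known for holding back keratinisation. The other dehydrogenases include enzymes that clear aldehydes from lipid peroxidation, alcohol, amino acids and folate metabolism.

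Of the 53 genes, 3 rose and 7 fell in KrTB+DOX, and in either direction 8.13% of all genes were called. The 3 that rose are 5.66% of them, where 3.82% of all genes per the authors' deposited table were called higher, which is near that background. The 7 that fell are 13.2% of them, where 4.31% of all genes were called lower. All of the 3 that rose are among the 29 retinoid-acting genes, of which 10.3% were called higher and 10.3% lower. Of the 3 that rose, Cyp26b1 and Dhrs9 are described here. Those that fell were the retinoid-acting Adh1, Crabp2 and Aldh1a2 and the other dehydrogenases Aldh1a7, Adh6a, Aldh3a1 and Aldh3a2. The median log2 fold change was 0.08 over the 53 genes and -0.01 over all genes, and the median of mean expression was 4.84 log2 CPM for the 53 genes and 4.24 log2 CPM for all genes. With a demand for at least a 2-fold change, 1 of the 53 was higher and 4 were lower, beside 0.882% and 1.12% of all genes. Against a null of a 1.2-fold change 1 rose and 4 fell, beside 1.43% of all genes called in either direction. At an adjusted p under 0.01, 1 was higher and 4 were lower, beside 0.94% and 1.01% of all genes. With a trend with GC content and transcript length removed, 4 were higher and 6 lower, beside 4.21% and 3.74% of all genes.

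**Figure D1:**
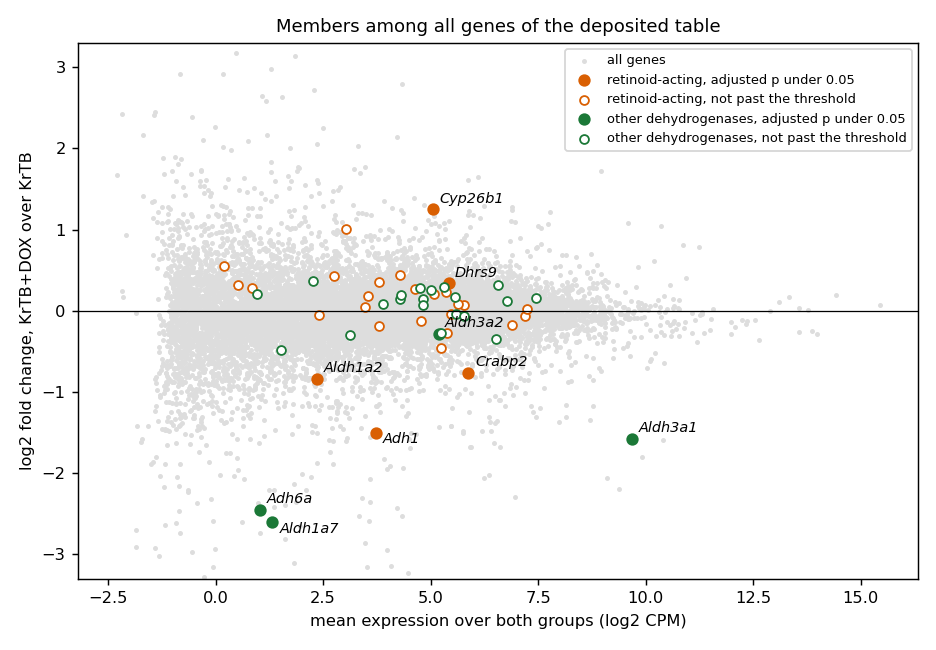
Log2 fold change of KrTB+DOX over KrTB (vertical axis) against mean expression over both groups in log2 CPM (horizontal axis) for all genes (grey) and for 52 of the 53 members (coloured, filled where the adjusted p is under 0.05). The called members spread from Adh6a at a mean of 1.04 to Aldh3a1 at 9.69 log2 CPM, and 42 genes lie beyond the vertical axis and are not drawn.

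Promoter windows show which of these genes hold the letters of a retinoic acid response element, a direct repeat of a short motif spaced by 5 bases. The RefSeq table on GRCm38.p6 gives windows from 250 bases before to 50 bases after a start site, and 42 of the 53 genes matched it with 59 windows. The known elements of Rarb and Cyp26a1 are shown for comparison, with the repeat in capitals. The Rarb window is chr14:16575427-16575726 on the minus strand and the Cyp26a1 window is chr19:37697558-37697857 on the plus strand.
Rarb: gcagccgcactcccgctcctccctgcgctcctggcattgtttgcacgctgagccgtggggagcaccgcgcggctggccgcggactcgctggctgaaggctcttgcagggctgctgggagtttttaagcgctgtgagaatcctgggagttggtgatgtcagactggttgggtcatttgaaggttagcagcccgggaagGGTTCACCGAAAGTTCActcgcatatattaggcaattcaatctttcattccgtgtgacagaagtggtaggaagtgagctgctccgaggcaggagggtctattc
Cyp26a1: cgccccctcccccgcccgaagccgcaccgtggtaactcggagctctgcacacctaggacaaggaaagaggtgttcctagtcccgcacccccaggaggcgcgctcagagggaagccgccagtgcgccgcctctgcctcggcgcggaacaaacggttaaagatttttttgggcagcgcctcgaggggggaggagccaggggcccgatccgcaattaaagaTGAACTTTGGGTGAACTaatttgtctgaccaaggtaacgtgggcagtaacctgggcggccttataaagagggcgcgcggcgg

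The Rarb repeat reads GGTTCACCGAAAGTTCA and begins 53 bases before the start site, and the Cyp26a1 repeat reads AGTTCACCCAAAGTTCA on the opposite strand. Searched on both strands, AGNTCANNNNNAGNTCA occurred in 0 of the 59 windows of the measured members and in 0.204% of the 32851 windows of all genes, Cyp26a1 among them. The looser NGNTCANNNNNNGNTCA, chosen after matches were seen, contains the stricter repeat and occurred in 1 of the 59, that of Rarb, and in 0.861% of all windows. The repeats AGNTCANAGNTCA and AGNTCANNAGNTCA were in 0 of the 59, beside 0.219% of all windows for the spacing of 1 base and 0.107% for that of 2 bases. The lone unit AGGTCA was in 16.9% of the members' windows and 16.3% of all windows, and AGTTCA in 13.6% of the members' windows and 14% of all windows. The lone units can lie inside the repeats. These figures describe letters in a short window.

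Of the called genes 7 had a window, and those of 5 follow, so that they can be read beside the 2 known elements. The 5 are the retinoid-acting Cyp26b1, Dhrs9, Aldh1a2 and Adh1 and the dehydrogenase Adh6a next to Adh1. Crabp2 and Aldh3a1 had no RefSeq window and were not searched. Dhrs9 (chr2:69380212-69380511, plus strand) carries AGGTCA on the opposite strand, in capitals as TGACCT, 88 bases before its start. The windows of Cyp26b1 (chr6:84593761-84594060, minus strand), Aldh1a2 (chr9:71215539-71215838, plus), Adh1 (chr3:138277335-138277634, plus) and Adh6a (chr3:138313036-138313335, plus) hold none of the searched letters and so no capitals. The RefSeq start of Adh1 lies inside the gene body that GENCODE M21 annotates.
Cyp26b1: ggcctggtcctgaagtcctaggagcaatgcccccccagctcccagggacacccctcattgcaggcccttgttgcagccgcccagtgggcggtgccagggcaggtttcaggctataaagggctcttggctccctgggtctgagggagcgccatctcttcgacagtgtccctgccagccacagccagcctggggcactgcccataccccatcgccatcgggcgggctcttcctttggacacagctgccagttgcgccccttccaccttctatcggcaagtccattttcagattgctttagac
Dhrs9: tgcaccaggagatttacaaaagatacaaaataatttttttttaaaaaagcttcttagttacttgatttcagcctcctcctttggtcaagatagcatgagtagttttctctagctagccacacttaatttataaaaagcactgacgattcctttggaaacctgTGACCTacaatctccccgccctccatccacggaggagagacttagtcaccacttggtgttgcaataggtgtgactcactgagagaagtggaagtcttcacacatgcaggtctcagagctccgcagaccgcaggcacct
Aldh1a2: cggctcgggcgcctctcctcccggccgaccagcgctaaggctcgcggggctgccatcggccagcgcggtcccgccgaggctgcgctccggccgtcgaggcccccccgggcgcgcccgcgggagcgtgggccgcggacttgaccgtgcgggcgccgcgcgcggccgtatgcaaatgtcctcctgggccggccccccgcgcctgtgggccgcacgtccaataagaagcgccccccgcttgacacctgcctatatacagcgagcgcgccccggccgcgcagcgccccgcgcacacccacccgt
Adh1: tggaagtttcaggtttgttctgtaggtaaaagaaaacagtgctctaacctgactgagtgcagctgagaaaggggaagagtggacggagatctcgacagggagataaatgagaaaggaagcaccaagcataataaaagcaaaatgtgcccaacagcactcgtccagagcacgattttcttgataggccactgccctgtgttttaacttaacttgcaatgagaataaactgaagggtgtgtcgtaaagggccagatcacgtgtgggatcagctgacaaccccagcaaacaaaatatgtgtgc
Adh6a: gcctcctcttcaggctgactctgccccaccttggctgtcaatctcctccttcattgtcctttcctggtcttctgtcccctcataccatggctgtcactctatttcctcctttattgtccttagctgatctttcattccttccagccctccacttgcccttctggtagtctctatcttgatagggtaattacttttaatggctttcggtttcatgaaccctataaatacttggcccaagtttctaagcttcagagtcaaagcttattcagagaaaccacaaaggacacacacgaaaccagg

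Among genes of retinol uptake, binding and storage, the 5 described here did not pass the test. Rbp2, the intestinal type of retinol-binding protein, had an implied 43.6 CPM in KrTB+DOX and 44.7 CPM in KrTB per the authors' deposited table (-0.04 on the log2 scale, SE 0.16, adjusted p = 0.91). Per kilobase of exon it stood at 45.3 CPM per kb in KrTB+DOX and 46.5 CPM per kb in KrTB.

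Stra6, the receptor that takes up retinol from its plasma carrier, had an implied 11.6 CPM in KrTB+DOX and 5.81 CPM in KrTB per the authors' deposited table. Its 2-fold difference came with an SE of 0.38 on the log2 scale and a 95% interval of 0.15 to 1.85, and it did not pass (adjusted p = 0.134 per the authors' deposited table). Rbp7, a further retinol-binding protein, stood at 0.43 on the log2 scale (SE 0.13, adjusted p = 0.0683) per the authors' deposited table, and corrected for a trend with GC content and transcript length it passed at 0.0433. On the same scale the plasma carrier Rbp4 (0.55, SE 0.42, adjusted p = 0.451) and the esterifying enzyme Lrat (0.32, SE 0.31, adjusted p = 0.556) were scarce, with mean expression of 0.19 and 0.52 log2 CPM per the authors' deposited table.

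Enzymes that turn retinol and retinaldehyde into each other numbered 11, and 1 was called higher and 1 lower. Each is 9.09% of the 11, beside 3.82% of all genes called higher and 4.31% called lower. Dhrs9, a short-chain dehydrogenase that oxidises retinol (chromosome 2, 69380445 to 69404533, plus strand, ENSMUSG00000027068.6), had an implied 48 CPM in KrTB+DOX and 38 CPM in KrTB per the authors' deposited table. It rose 1.26-fold per the authors' deposited table (0.34 on the log2 scale, SE 0.09, interval 0.15 to 0.53, adjusted p = 0.0404). This small change did not pass against a null of 1.2-fold, with an adjusted p of 1. Adh1, the class I alcohol dehydrogenase that clears excess retinol (chromosome 3, 138260991 to 138290698, plus strand, ENSMUSG00000074207.10), had an implied 7.87 CPM in KrTB+DOX and 22.3 CPM in KrTB per the authors' deposited table. It fell 2.83-fold per the authors' deposited table (-1.50 on the log2 scale, SE 0.25, interval -2.06 to -0.95, adjusted p = 0.00854). Fibroblast markers fell in the same comparison, 5 of 10 being called lower (median -0.88), and their part in the Adh1 value was not tested. In bulk RNA, fewer cells of a type and less RNA per cell cannot be told apart.

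The Rdh and remaining Dhrs enzymes of this step did not pass. Rdh10, the main retinol dehydrogenase of the embryo, stood at 0.05 on the log2 scale (SE 0.11, interval -0.19 to 0.29, adjusted p = 0.819) per the authors' deposited table. Dhrs3, which reduces retinaldehyde back to retinol, stood at -0.28 on the log2 scale (SE 0.14, adjusted p = 0.264) per the authors' deposited table. Rdh12, a retinaldehyde reductase known from photoreceptors, stood at -0.46 with an SE of 0.29 (adjusted p = 0.365) per the authors' deposited table. Its neighbour Rdh11, 16.6 kb away, stood at -0.19 (SE 0.13, adjusted p = 0.415) per the authors' deposited table. The log2 fold changes of the others per the authors' deposited table were 0.24 for Rdh13 (adjusted p = 0.172), 0.20 for Dhrs4 (0.253), -0.13 for Rdh14 (0.364) and -0.05 for Rdh5 (0.84). In the Rdh5 value reads of Bloc1s1, which overlaps it on the same strand over 720 exonic bases, cannot be told apart where they share sequence (16.3% of Rdh5 windows of 51 bases). Of the 6 Rdh genes limma called 0, beside 8.13% of all genes called in either direction, with 1 (Rdh13) at an unadjusted p under 0.05.

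Adh7, the class IV alcohol dehydrogenase of the upper digestive tract, was the most abundant of these 11 enzymes per exon length, at 29.5 CPM per kb in KrTB+DOX and 33.4 CPM per kb in KrTB. Its log2 fold change was -0.18 per the authors' deposited table, with an SE of 0.27, an interval of -0.79 to 0.43 and an adjusted p of 0.722. The next most abundant were Dhrs4 (20.7 CPM per kb in KrTB+DOX and 17.9 in KrTB) and Rdh14 (17.6 in KrTB+DOX and 19.2 in KrTB). Dhrs9 ranked below Dhrs3 and Rdh12 in mean level per kb.

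The alcohol dehydrogenase genes lie in a row on chromosome 3 on the plus strand, in the order Adh7, Adh1, Adh6a, Adh6b, Adh4 and Adh5. Adh6b and Adh4 had no value. Of the 4 measured genes of the row, the neighbours Adh1 and Adh6a were called lower, beside 4.31% of all genes called lower. Adh6a (138313286 to 138331134, ENSMUSG00000053054.13) begins 22.6 kb after the end of Adh1. It had an implied 0.881 CPM in KrTB+DOX and 4.81 CPM in KrTB per the authors' deposited table. This was 5.46-fold lower per the authors' deposited table (-2.45 on the log2 scale, SE 0.55, interval -3.69 to -1.21, adjusted p = 0.028). Its mean expression was low, at 1.04 log2 CPM, and against a null of 1.2-fold it had an adjusted p of 0.0896. The genes at either end of the row did not pass, Adh7 as given above and Adh5, the formaldehyde-clearing class III enzyme, at -0.04 on the log2 scale (SE 0.09, adjusted p = 0.833) per the authors' deposited table. Whether the fold changes of neighbours differed from each other was not tested, since that needs values per library. Windows of 51 bases, the read length, that also occur in transcripts of another gene were 3 of 1442 for Adh1 (0.208%) and 4 of 2313 for Adh6a (0.173%). An antisense gene without a value, Gm16559, overlaps 136 exonic bases of Adh1.

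**Figure D2:**
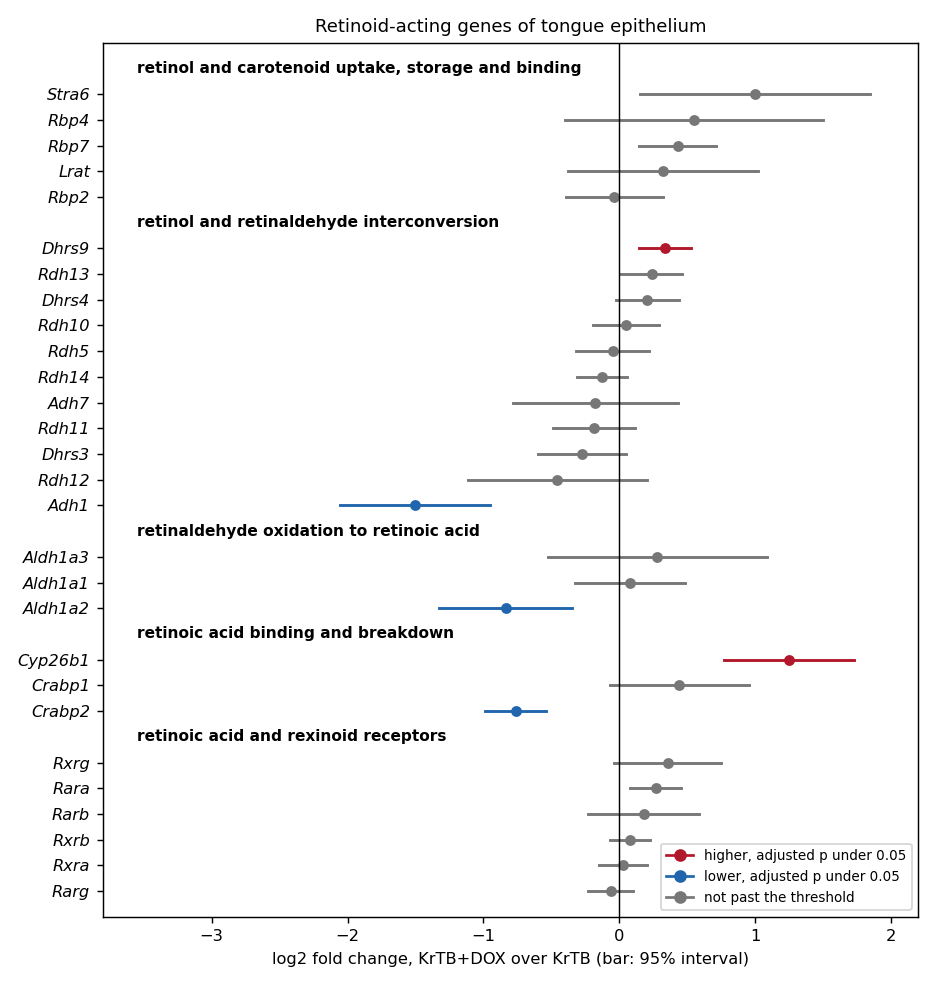
Log2 fold change of KrTB+DOX over KrTB with its 95% interval for 28 of the 29 retinoid-acting genes, grouped by role. Red marks genes called higher, blue genes called lower and grey genes that did not pass. Cyp26b1 and Dhrs9 lie right of 0, and Adh1, Aldh1a2 and Crabp2 left of it.

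Of the retinaldehyde-oxidising enzymes that make retinoic acid, 1 of 3 measured fell, beside 4.31% of all genes called lower. Aldh1a2, the enzyme of embryonic mesoderm (chromosome 9, 71215789 to 71296243, plus strand, ENSMUSG00000013584.5), had an implied 3.83 CPM in KrTB+DOX and 6.84 CPM in KrTB per the authors' deposited table. It was 1.79-fold lower per the authors' deposited table (-0.84 on the log2 scale, SE 0.22, interval -1.33 to -0.35, adjusted p = 0.0462). The same 10 fibroblast markers, of which 5 were called lower, had a summed implied level of 1621 CPM in KrTB+DOX and 3308 CPM in KrTB. Of that sum Col3a1 alone gave 270 CPM in KrTB+DOX and 1123 CPM in KrTB. The part of fibroblasts in the Aldh1a2 value was not tested. The Aldh1a2 call sits at the threshold and was lost after correction for GC content and length, where the log2 fold change was -0.80 (adjusted p = 0.055), and against a null of 1.2-fold (0.277). Aldh1a1 was the most abundant of the 3, at 11.5 CPM per kb in KrTB+DOX and 10.9 CPM per kb in KrTB, where Aldh1a2 had 1.69 in KrTB+DOX and 3.02 in KrTB. Aldh1a3 was scarce, at 0.431 CPM per kb in KrTB+DOX and 0.355 in KrTB. The log2 fold change of Aldh1a1 was 0.08 (SE 0.18, adjusted p = 0.831) and that of Aldh1a3 was 0.28 (SE 0.36, adjusted p = 0.669) per the authors' deposited table. Summed over the 3 genes, without scaling for exon length, the implied level was 62.5 CPM in KrTB+DOX and 62.3 CPM in KrTB. Most of this was Aldh1a1, with 56.7 CPM in KrTB+DOX and 53.8 CPM in KrTB.

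Among genes that bind or break down retinoic acid, Cyp26b1 rose and Crabp2 fell. Cyp26b1, the retinoic acid hydroxylase (chromosome 6, 84571414 to 84593908, minus strand, ENSMUSG00000063415.12), had an implied 51.6 CPM in KrTB+DOX and 21.7 CPM in KrTB per the authors' deposited table. It rose 2.38-fold per the authors' deposited table (1.25 on the log2 scale, SE 0.21, interval 0.77 to 1.72, adjusted p = 0.00968). It was the only one of the 53 genes that rose at least 2-fold past the threshold, and the only one that rose against a null of 1.2-fold. Crabp2, which carries retinoic acid to the nuclear receptors (chromosome 3, 87948666 to 87953376, plus strand, ENSMUSG00000004885.5), had an implied 45.3 CPM in KrTB+DOX and 76.8 CPM in KrTB per the authors' deposited table. It fell 1.70-fold per the authors' deposited table (-0.76 on the log2 scale, SE 0.10, interval -0.99 to -0.54, adjusted p = 0.00339). Crabp1, its relative that holds retinoic acid in the cytosol, stood at 0.44 on the log2 scale (SE 0.23, adjusted p = 0.263) per the authors' deposited table. Per kilobase Crabp2 had 34.2 CPM in KrTB+DOX and 58.1 in KrTB, and Crabp1 had 28.4 CPM in KrTB+DOX and 20.9 in KrTB.

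None of the 6 receptors was called by limma, beside 8.13% of all genes called in either direction, and 1 had an unadjusted p under 0.05. That was Rara, with a log2 fold change of 0.27 (SE 0.08, interval 0.08 to 0.45, adjusted p = 0.0796) per the authors' deposited table. Rarg, the main retinoic acid receptor of keratinocytes, stood at -0.07 on the log2 scale (SE 0.07, interval -0.23 to 0.10) and its usual partner Rxra at 0.03 (SE 0.08, interval -0.15 to 0.20) per the authors' deposited table. Rarb, whose window holds the repeat shown above, stood at 0.18 on the log2 scale (SE 0.18, interval -0.23 to 0.59, adjusted p = 0.577) per the authors' deposited table. Its exons overlap those of Top2b on the opposite strand over 1793 bases, and the sources used here do not give the strand setting of the counting. Rxrb stood at 0.08 (SE 0.07) and Rxrg at 0.35 (SE 0.18) on the log2 scale per the authors' deposited table, without a call. Per kilobase of exon Rarg had 33.7 CPM in KrTB+DOX and 35.3 in KrTB, and Rara had 6.21 CPM in KrTB+DOX and 5.16 in KrTB. Rarb was lower still, at 2.36 CPM per kb in KrTB+DOX and 2.09 in KrTB.

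**Figure D3:**
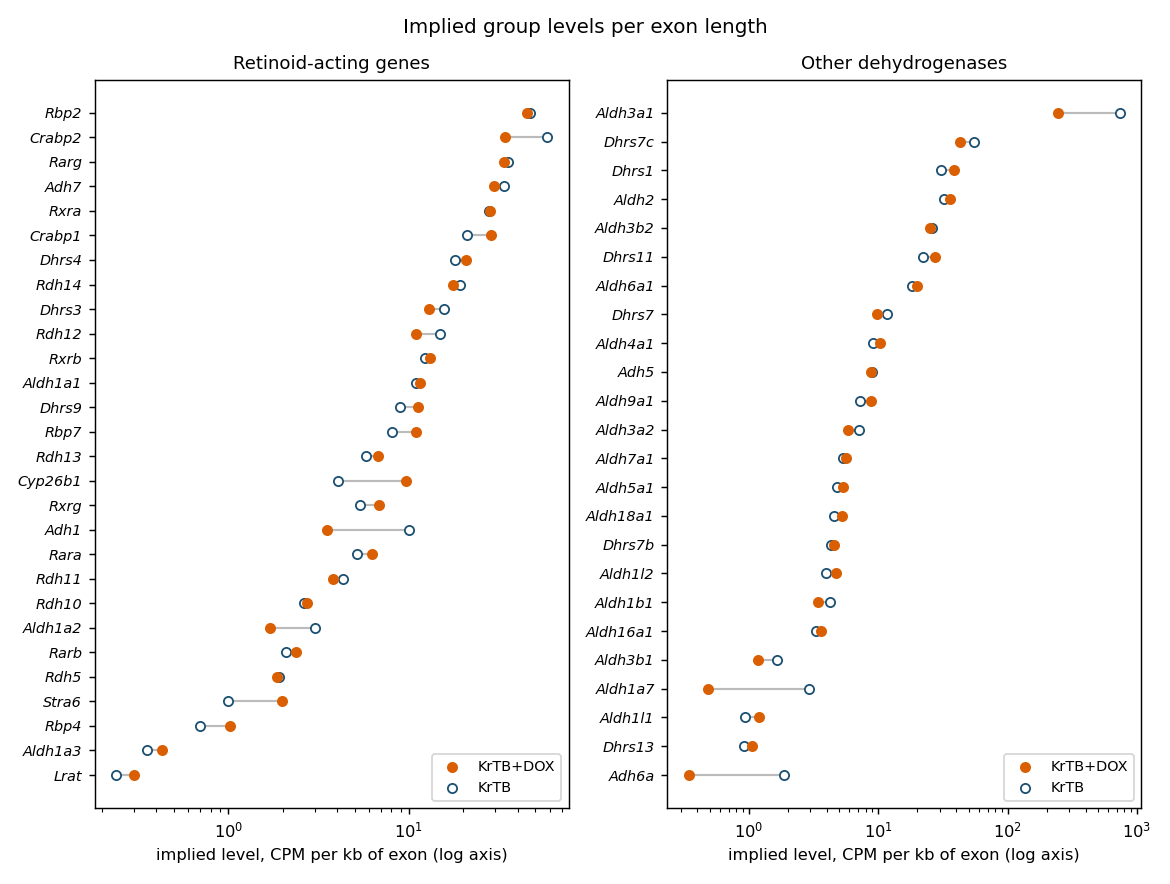
Implied level in KrTB+DOX (filled orange) and KrTB (open blue) in CPM per kilobase of exon, on a log axis, for 28 of the 29 retinoid-acting genes and the 24 other dehydrogenases, ordered by mean level. Aldh3a1 stands above all others in both groups, at 246 CPM per kb in KrTB+DOX and 733 in KrTB, and the long connecting lines belong to Aldh1a7, Adh6a, Aldh3a1, Adh1 and Cyp26b1.

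Of the 24 other dehydrogenases 4 fell and limma called 0 higher, with 1 (Aldh9a1) above 0 at an unadjusted p under 0.05. The 4 are 16.7% of these genes, beside the 4.31% of all genes called lower. Aldh3a1, which clears aldehydes of lipid peroxidation at body surfaces such as the cornea (chromosome 11, 61207537 to 61218421, plus strand, ENSMUSG00000019102.10), had an implied 477 CPM in KrTB+DOX and 1424 CPM in KrTB per the authors' deposited table. It fell 2.99-fold per the authors' deposited table (-1.58 on the log2 scale, SE 0.23, interval -2.10 to -1.06, adjusted p = 0.00533). Its mean expression lay at the 99.4th percentile of all genes. Summed per exon length, Aldh3a1 made up 47.6% of the implied level of the 24 genes in KrTB+DOX and 73.2% in KrTB. That summed level was 516 CPM per kb in KrTB+DOX and 1001 in KrTB.

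Aldh3a2, the fatty aldehyde dehydrogenase (chromosome 11, 61223417 to 61267464, minus strand, ENSMUSG00000010025.19), faces Aldh3a1 across a gap of 4995 bases. It had an implied 33 CPM in KrTB+DOX and 40.1 CPM in KrTB per the authors' deposited table. This small difference passed the test (-0.28 on the log2 scale, SE 0.06, interval -0.41 to -0.15, adjusted p = 0.0211 per the authors' deposited table). Against a null of 1.2-fold its adjusted p was 1.

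Aldh1a7 showed the largest fold among the 53 genes. This relative of Aldh1a1, found in rodents (chromosome 19, 20692953 to 20727562, minus strand, ENSMUSG00000024747.3), had an implied 1.01 CPM in KrTB+DOX and 6.1 CPM in KrTB per the authors' deposited table. It was 6.06-fold lower per the authors' deposited table (-2.60 on the log2 scale, SE 0.33, interval -3.34 to -1.86, adjusted p = 0.00294). Aldh1a1 lies 49.5 kb away on the opposite strand and, as given above, did not pass. The transcripts of the 2 genes are alike in part. Of the Aldh1a7 windows of 51 bases 7.24% occur in Aldh1a1 transcripts, and of the Aldh1a1 windows 6.33% occur in Aldh1a7. With a mean of 1.31 log2 CPM, and of 1.04 for Adh6a, the sizes of these folds can depend on how low counts were treated.

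The other 20 dehydrogenases did not pass, with log2 fold changes, given here after gene names, from -0.48 to 0.37 and a median of 0.15. The lowest was Aldh3b1, an enzyme of lipid-derived aldehydes (-0.48, SE 0.17, adjusted p = 0.105), and the highest the folate enzyme Aldh1l1 (0.37, SE 0.24, adjusted p = 0.384) per the authors' deposited table. Mitochondrial enzymes were among them. They include Aldh2, which clears acetaldehyde (0.15, SE 0.13), Aldh4a1 of proline breakdown (0.17, SE 0.09), Aldh6a1 of valine breakdown (0.12, SE 0.13) and Aldh18a1 of proline synthesis (0.19, SE 0.15) per the authors' deposited table. Aldh9a1, an enzyme of carnitine synthesis, stood at 0.28 on the log2 scale (SE 0.09, adjusted p = 0.0816) per the authors' deposited table. Aldh1b1 (-0.30, adjusted p = 0.185) and Dhrs7 (-0.28, adjusted p = 0.139) lay below 0 with intervals that exclude 0, but did not pass per the authors' deposited table. The remaining Aldh1l2, Aldh5a1, Aldh7a1, Aldh16a1, Dhrs1, Dhrs7b, Dhrs11 and Dhrs13 lay between 0.07 (Aldh7a1) and 0.32 (Dhrs1) per the authors' deposited table, without a call. Exons of Aldh1l1, Aldh1l2, Aldh2, Aldh5a1, Aldh6a1, Aldh7a1, Aldh16a1 and Dhrs13 overlap another gene on the opposite strand, whose reads may be included. For Aldh3b2 (-0.06, adjusted p = 0.833 per the authors' deposited table) 23.2% of windows also occur in Aldh3b3, and for Aldh4a1 35.4% occur in Gm21969. These values can hold reads of another gene or lack reads of their own, depending on how shared reads were handled.

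**Figure D4:**
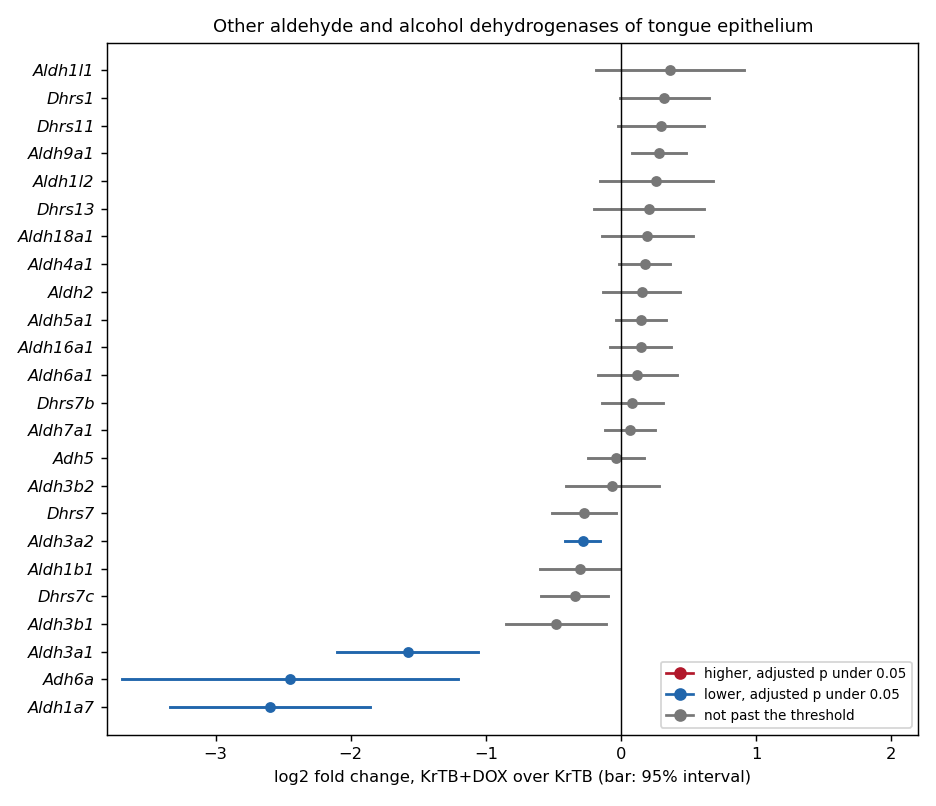
Log2 fold change of KrTB+DOX over KrTB with its 95% interval for the 24 other dehydrogenases. Blue marks genes called lower and grey genes that did not pass. Aldh1a7, Adh6a, Aldh3a1 and Aldh3a2 are called, and the uncalled genes lie between -0.48 and 0.37.

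Further genes of the pathway outside the 53 were counted in lists, with values after gene names given as log2 fold changes. Of 23 measured genes of retinoid handling, 1 rose (4.35%) and 2 fell (8.7%), with a median log2 fold change of -0.11. Of all genes 3.82% were called higher and 4.31% lower. The fatty acid-sensing nuclear receptor Ppard rose by 0.30 (SE 0.07, adjusted p = 0.0334) per the authors' deposited table. The aldehyde oxidase Aox4 (-0.85, SE 0.19, adjusted p = 0.0269) and the epidermal retinol dehydrogenase Sdr16c5 (-0.96, SE 0.25, adjusted p = 0.0473) fell per the authors' deposited table, while the carboxylesterase Ces1d (-0.68, SE 0.18, adjusted p = 0.0511) did not pass. Of 13 receptor coregulators limma called 0, beside 8.13% of all genes called in either direction. Their median was 0.01, with 2 at an unadjusted p under 0.05. Ncoa2 (-0.15), Kat2b (-0.15) and Crebbp (0.13) did not pass per the authors' deposited table.

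Of 22 measured genes known to be induced by retinoic acid in various tissues, 0 rose and 1 fell (4.55%), near the 4.31% of all genes called lower. Their median was 0.01, and 1 was higher at an unadjusted p under 0.05. The decrease was that of Rarres1 (-0.82, SE 0.22, adjusted p = 0.047) per the authors' deposited table. Meis1 (-0.38, adjusted p = 0.153) and Tbx1 (0.24, adjusted p = 0.164) did not pass per the authors' deposited table. Of 10 measured epidermal differentiation genes known to be lowered by retinoic acid, 2 rose and 0 fell, with 1 lower at an unadjusted p under 0.05. These were the keratin Krt1 (2.64, SE 0.29, adjusted p = 0.00163) and the cornification protease Casp14 (1.13, SE 0.17, adjusted p = 0.00533) per the authors' deposited table. Krt1 was scarce, with a mean of 1.07 log2 CPM, so the size of its fold can depend on how low counts were treated. The crosslinking enzymes Tgm3 (-0.64, adjusted p = 0.0595) and Tgm1 (0.47, adjusted p = 0.0718) did not pass per the authors' deposited table. The share called higher among all genes was 3.82%, and the median of these 10 was 0.18. Of the 10 genes 7 lay above 0, while their summed implied level was 3554 CPM in KrTB+DOX and 4246 CPM in KrTB.

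Marker lists were read for the cell types in the libraries, with values after gene names again as log2 fold changes. The counts of all 10 marker lists stand beside 3.82% of all genes called higher and 4.31% called lower. Keratinocyte markers were abundant, with a summed implied level of 8143 CPM in KrTB+DOX and 5969 CPM in KrTB for 10 basal markers, and of 38887 CPM in KrTB+DOX and 43994 CPM in KrTB for 10 suprabasal ones. Of the basal markers 3 rose and 0 fell, with none lower at an unadjusted p under 0.05 (median 0.33). They were Itga3 (0.63), the basal transcription factor Trp63 (0.78) and Krt15 (0.54), while Lamb3 (0.26, adjusted p = 0.0975) did not pass per the authors' deposited table. Of the suprabasal ones 0 rose and 2 fell, with 2 higher at an unadjusted p under 0.05 (median -0.27). The decreases were those of Sprr3 (-2.19) and Evpl (-0.40), while Ppl (-0.32) and Krt6a (0.79) did not pass per the authors' deposited table.

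Skeletal muscle RNA was present as well, at a summed implied level of 40316 CPM in KrTB+DOX and 47062 CPM in KrTB over 10 markers. Of these limma called 0, with 3 lower at an unadjusted p under 0.05 (median -0.21), Tnnt3 (-0.28), Acta1 (-0.36), Mylpf (-0.27) and Myh2 (-0.57) being nearest to the threshold per the authors' deposited table. Dhrs7c, a dehydrogenase of the sarcoplasmic reticulum of muscle, had an implied 81.1 CPM in KrTB+DOX and 103 CPM in KrTB per the authors' deposited table (-0.34 on the log2 scale, SE 0.11, adjusted p = 0.0865). The part of muscle in its value was not tested.

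Of the 10 fibroblast markers 5 fell and 0 rose, with none higher at an unadjusted p under 0.05, the median was -0.88, and none was at 0. The 5 were Col3a1 (-2.05), Col1a2 (-1.31), Fbn1 (-1.63), Lum (-0.83) and Col1a1 (-1.25) per the authors' deposited table. The 5 that did not pass were Postn (-0.93, adjusted p = 0.067), Col6a3 (-0.81, 0.0658), Dpt (-0.61, 0.0556), Pdgfra (-0.44, 0.209) and Dcn (-0.15, 0.518) per the authors' deposited table. Naming all 10 was decided after their values were seen. Adh1 and Aldh1a2 are known from connective tissue as well as epithelium. The part of fibroblasts in the values of Adh1 and Aldh1a2 was not tested. Nor was that of the keratinocyte layers in the values of Crabp2 and Aldh3a1.

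Of the remaining marker lists, those of endothelium and taste bud held called genes. Of 10 endothelial markers 1 rose (Eng, 0.42) and 1 fell (Cdh5, -0.38), and Flt1 (0.33) and Vwf (0.28) did not pass per the authors' deposited table (median 0.05). Of 7 measured taste bud markers 2 rose, Krt18 (2.09) and Krt8 (1.68), while Entpd2 (-0.31) and Snap25 (-0.94) did not pass per the authors' deposited table (median -0.16). Krt18 and Krt8 were the only ones of the 7 above 0. Both were scarce, with mean expression of 0.76 and -1.19 log2 CPM, so the sizes of their folds can depend on how low counts were treated. Limma called 0 of 8 leukocyte markers (median -0.12), 0 of 6 adipocyte markers (0.30), 0 of 2 salivary gland markers (0.39) and 0 of 7 Schwann cell and melanocyte markers (-0.30). At an unadjusted p under 0.05 there were 0 leukocyte, 1 adipocyte, 1 salivary gland and 0 Schwann cell and melanocyte markers. The defining markers Cd3e, Plin1, Bpifa2, Trpm5 and Pmel had no value.

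**Figure D5:**
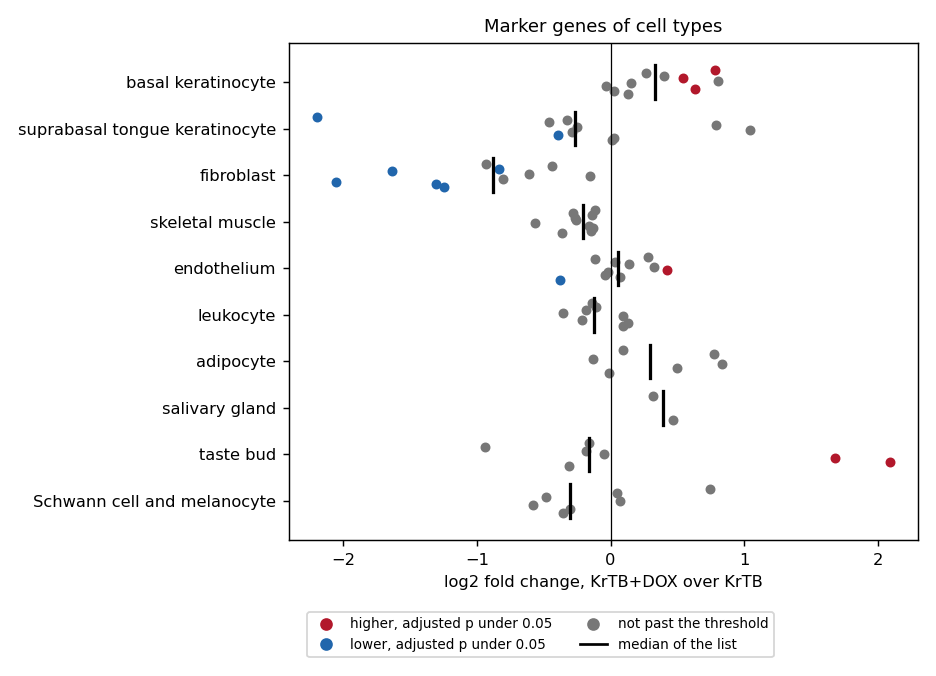
Log2 fold change of KrTB+DOX over KrTB for marker genes of 10 cell types, a point per measured gene and a black bar at each list's median. Fibroblast markers lie below 0 with a median of -0.88, basal keratinocyte markers have a median of 0.33, and skeletal muscle markers have a median of -0.21.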

How the data were processed

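Messenger RNA of 8 tongue epithelium libraries was compared, 4 in KrTB+DOX and 4 in KrTB, grouped by the treatment label, and the design text calls the libraries of a group biological replicates. GRCm38, STAR 2.5.2b, HTSeq 0.11.2, cutadapt and bcl2fastq 2.20 appear, without roles or settings, among the submitters' processing notes. The deposited file is a comparison table with 0 columns of values per library, in which the authors give a log2 fold change and a mean in log2 CPM per gene, limma's t (a moderated score), its p-value and its Benjamini-Hochberg adjusted p-value, per the file headers. The sources used here do not give the design formula, the filter or the handling of shared reads. How low counts were filtered decides which members have a value.

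SEs were computed as fold change over t, and 95% intervals with the 9.76 degrees of freedom that link the deposited t and p. That is 6 residual and 3.76 prior ones if no covariate was fitted. Recomputed adjusted p-values differed by at most 6.4e-15. Exon lengths, positions and shared 51-base windows came from GENCODE M21 on GRCm38, all 53 members being matched, and promoters from RefSeq on GRCm38.p6. The computations used Python 3.11.15, pandas 2.3.3 and scipy 1.17.1 and were tested on simulated data. Members and lists were chosen with earlier results of these data known. Named are all called members, all retinoid-acting members, members with at least 2-fold changes, and up to 4 genes with the smallest p of each of 16 further lists, except 1 member and 2 list genes whose values are not reported here. Other members are named for their role, picked after their values were seen. Alternatives were a null of 1.2-fold, a mean of at least 1 log2 CPM, centring on the median gene, removal of a GC and length trend, a 2-fold minimum and an adjusted p under 0.01.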

Additional observations from a re-analysis of the deposited data

How the results depend on the processing

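Centring on the median gene, and testing only the 13074 genes that average 1 log2 CPM or more, left all counts of called members as they were, with 8.26% and 9.06% of genes called. Against a null of 1.2-fold, 222 genes passed (1.43%), among them 1 member higher and 4 lower. These were 1 retinoid-acting member higher and 2 lower, and 2 other dehydrogenases lower. With at least a 2-fold change there were 1 higher and 4 lower, of which 1 and 1 act on retinoids. At an adjusted p under 0.01, which 1.95% of all genes passed, there were 1 higher and 4 lower, of which 1 and 2 act on retinoids and 2 lower are other dehydrogenases. With the GC and length trend removed 4 were higher and 6 lower, Rbp7 being gained and Aldh1a2 lost, while of all genes 4.21% were higher and 3.74% lower. Under that setting the uncalled Rbp2 (0.022), Rxra (-0.035) and Rxrb (-0.015) changed sign, and the cause was not tested. Every direction rests on the reading of the sign from Bmi1. No paired analysis was possible because the table holds no values per library, and leaving out each replicate was not run for the same reason. Differences between members were not tested.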

Other observations

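Other oxidoreductases were counted in 2 lists, with values after gene names given as log2 fold changes, and among all genes 3.82% were called higher and 4.31% lower. Of 22 measured hydroxysteroid and other short-chain dehydrogenases outside the members, 1 rose (4.55%) and 2 fell (9.09%), with a median log2 fold change of 0.00. Hsd17b2, which inactivates oestradiol and testosterone, rose by 1.08 (SE 0.24, adjusted p = 0.0263) per the authors' deposited table. Decr2, a peroxisomal reductase of unsaturated fatty acids (-0.68, SE 0.09, adjusted p = 0.00417), and Bdh2 (-0.97, SE 0.22, adjusted p = 0.0265) fell per the authors' deposited table. Hsdl2 (0.21, adjusted p = 0.146) did not pass per the authors' deposited table.

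Of 21 measured aldehyde-linked and NRF2 enzymes outside the members, 2 rose (9.52%) and 1 fell (4.76%), with a median of 0.14. Aldoc, an aldolase (1.17, SE 0.13, adjusted p = 0.00163), and Srxn1, which repairs peroxiredoxins (0.40, SE 0.10, adjusted p = 0.0387), rose per the authors' deposited table. The epoxide hydrolase Ephx1 fell by 0.28 (SE 0.06, adjusted p = 0.0258) per the authors' deposited table, while the glutathione transferase Gstm1 (-0.38, SE 0.10, adjusted p = 0.0506) did not pass.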
